A study of Mus musculus with 4 samples.

Results

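The HoxB cluster on mouse chromosome 11 was followed gene by gene in RNA-seq of motor neurons (MNs) made in culture. Its members were the 10 protein-coding genes *Hoxb1* to *Hoxb9* and *Hoxb13*, taken by symbol, and all 10 had a row among the 23420 symbols counted. The data were 2 WT and 2 *Patz1* KO libraries. WT cells were mESCs (mouse embryonic stem cells) of the line E14, and the KO cells came from the same line after CRISPR editing of *Patz1*, which encodes a zinc finger protein studied as a chromatin insulator. Both genotypes were taken through the same differentiation toward cervical MNs, with 1 uM retinoic acid and 0.5 uM smoothened agonist (SAG) added on day 2. The KO lines were grown from single clones, and the labels do not say which clone, or how many clones, the 2 KO libraries came from. Sample titles name ESCs, whereas the source and cell type fields name MNs, so the cell type was checked against marker genes. By the study's methods the replicates of a genotype were separate differentiations, so the p values below cover the spread between differentiations and, with the number of clones not stated, not that between clones.

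Hox genes encode homeodomain transcription factors that give cells their position along the head-to-tail axis. Within a cluster the genes lie in the order in which they are switched on in time and in space, the low-numbered ones at the 3′ end acting in the hindbrain and the high-numbered ones at the 5′ end toward the tail. Retinoic acid, as used in this culture, turns on the 3′ genes, and Polycomb proteins keep the 5′ genes silent in anterior cells.

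All 10 genes lie on the plus strand (GRCm38, the assembly also called mm10, with GENCODE M21 annotation), in the order *Hoxb13*, *Hoxb9*, *Hoxb8*, *Hoxb7*, *Hoxb6*, *Hoxb5*, *Hoxb4*, *Hoxb3*, *Hoxb2* and *Hoxb1*. They span chr11:96194316-96368256, which is 173.9 kb, and a gap of 74.0 kb parts *Hoxb13* from *Hoxb9*, whereas the 9 genes from *Hoxb9* to *Hoxb1* fit within 96.8 kb. The antisense transcript *Hoxb3os* overlaps 52.9% of the exon bases of *Hoxb3* and 27.3% of those of *Hoxb2*, and *Hoxb5os* overlaps 3.59% of those of *Hoxb5*. The strand setting of the counting was not given in the sources used here, so reads of these 3 genes and of their antisense partners may not be told apart. No other member shares exon bases with another annotated gene.

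Promoters of only 3 of the 10 genes were in the RefSeq promoter table (GRCm38.p6), and all 3 are shown for that reason. The 250 bases before each start site are printed. These genes are the member that fell most (*Hoxb1*), the next one (*Hoxb4*) and one that missed the threshold (*Hoxb8*), but they were not chosen by their change. Capitals mark letters found by searching both strands for GGGGNGGGG, a G-rich element of the kind PATZ1 and MAZ bind, for TGATNNAT, a site of HOX and PBX proteins, and for TATAAA.
Hoxb1, chr11:96365508-96365757: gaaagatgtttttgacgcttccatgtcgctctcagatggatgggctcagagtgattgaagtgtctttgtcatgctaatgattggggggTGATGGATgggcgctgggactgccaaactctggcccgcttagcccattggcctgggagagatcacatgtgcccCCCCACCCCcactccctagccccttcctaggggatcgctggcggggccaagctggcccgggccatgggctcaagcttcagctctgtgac
Hoxb4, chr11:96318017-96318266: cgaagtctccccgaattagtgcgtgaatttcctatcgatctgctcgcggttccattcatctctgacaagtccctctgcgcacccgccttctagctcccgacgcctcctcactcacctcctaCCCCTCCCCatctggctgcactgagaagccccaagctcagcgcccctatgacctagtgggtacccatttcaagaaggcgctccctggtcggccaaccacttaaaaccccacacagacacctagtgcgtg
Hoxb8, chr11:96281655-96281904: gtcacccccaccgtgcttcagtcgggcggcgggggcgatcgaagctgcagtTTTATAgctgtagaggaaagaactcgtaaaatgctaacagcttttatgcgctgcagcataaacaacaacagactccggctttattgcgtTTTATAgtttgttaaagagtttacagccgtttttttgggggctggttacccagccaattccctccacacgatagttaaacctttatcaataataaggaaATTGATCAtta
The *Hoxb1* window held TGATNNAT on the plus strand 162 bases before the start site and GGGGNGGGG on the minus strand 89 bases before it. The *Hoxb4* window held only GGGGNGGGG, 129 bases before the start site on the minus strand. In the *Hoxb8* window there were 2 TATAAA matches, 199 and 110 bases before the start site, and a TGATNNAT match 11 bases before it, all on the minus strand. Over 32851 promoter windows of 300 bases (250 before and 50 after the start), 22.4% held GGGGNGGGG, 8.85% held TGATNNAT and 13.6% held TATAAA. The exact consensus of the DR5 type of retinoic acid response element (direct repeats of AGGTCA) was in none of the 3 windows and in 0.00913% of all windows. Variants of that consensus and sites outside the windows were not searched for, so such elements would be missed. These matches describe letters only, and binding was not measured in these libraries.

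The cluster also carries 2 microRNA genes whose mature sequences (RefSeq, GRCm38.p6) are shown because they lie among the members and because miR-196a is known to act on *Hoxb8*. Capitals mark the seed, bases 2 to 8.
miR-196a-5p, chr11:96265187-96265208: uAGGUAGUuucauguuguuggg
miR-10a-5p, chr11:96317186-96317208: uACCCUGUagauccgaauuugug
Hoxb8 transcript, from base 2208 of 2635: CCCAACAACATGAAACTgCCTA
The last line is the stretch of the *Hoxb8* 3′ UTR that pairs with miR-196a-5p. Capitals mark the 21 of 22 bases that form standard pairs. The remaining base forms a wobble pair and lies opposite the seed, so the seed pairing of this site is not perfect. The most seed matches of miR-196a-5p in a transcript were 2 for *Hoxb7* and 1 each for *Hoxb8*, *Hoxb6* and *Hoxb1*. The seeds of the 2 microRNAs differ, so they form no shared seed group. The microRNA genes themselves had few reads, as these libraries were made from total RNA and count the precursor at best. *Mir196a-1* had 2 and 1 counts for WT and 3 and 1 for KO. *Mir10a*, between *Hoxb5* and *Hoxb4*, had 6 and 3 counts for WT and 2 and 1 for KO, a pooled KO to WT ratio of 0.250 with an exact 95% interval of 0.0436 to 1.00.

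Total counts were 14769104 and 15728158 in WT and 23881522 and 17402342 in KO. *Patz1*, the targeted gene, had 91.5 and 94.3 CPM (counts per 1000000 counts of the library, on TMM library sizes) in WT and 47.6 and 42.6 in KO, a log2 fold change (KO over WT, as throughout) of -1.04 (SE 0.0951, adjusted p = 1.10e-07), so its reads fell but did not vanish. MN markers were present in all 4 libraries, with a summed level of the 11 markers of 876 to 933 CPM in WT and 1204 to 1318 CPM in KO, and *Isl1*, *Mnx1* and *Chat* among them. Replicates differed by more than sampling noise in both genotypes. Changes were tested over all 14269 genes that passed a filter on low counts, with edgeR's quasi-likelihood F test and Benjamini-Hochberg adjustment, and a gene was called at an adjusted p below 0.05. Of these genes 23.8% were called lower in KO and 24.1% were called higher, so that close to even numbers moved each way.

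Against that background the HoxB genes moved mostly downward. Of the 9 members tested, 7 fell (*Hoxb1* to *Hoxb7*), 0 rose and 2 missed the threshold (*Hoxb8* and *Hoxb9*), which is 77.8% called lower beside 23.8% of all genes tested and 0 called higher beside 24.1%. At an unadjusted p below 0.05 there were 8 lower and 0 higher, and DESeq2's Wald test called 6 lower and 0 higher. Both KO libraries lay below both WT libraries for 8 of the 9, where 37.2% of all genes did so, and above them for the remaining one, *Hoxb9*, where 37.0% did so. The median log2 fold change of the 9 was -0.52, and that of all genes tested was -0.0014. *Hoxb13* was the one member left out by the filter, and *Hoxb1*, one of the 7 called lower, passed it only through WT. In bulk RNA a lower level can come from fewer cells of a type or from less RNA per cell, and these cannot be told apart here.

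**Figure D1:**
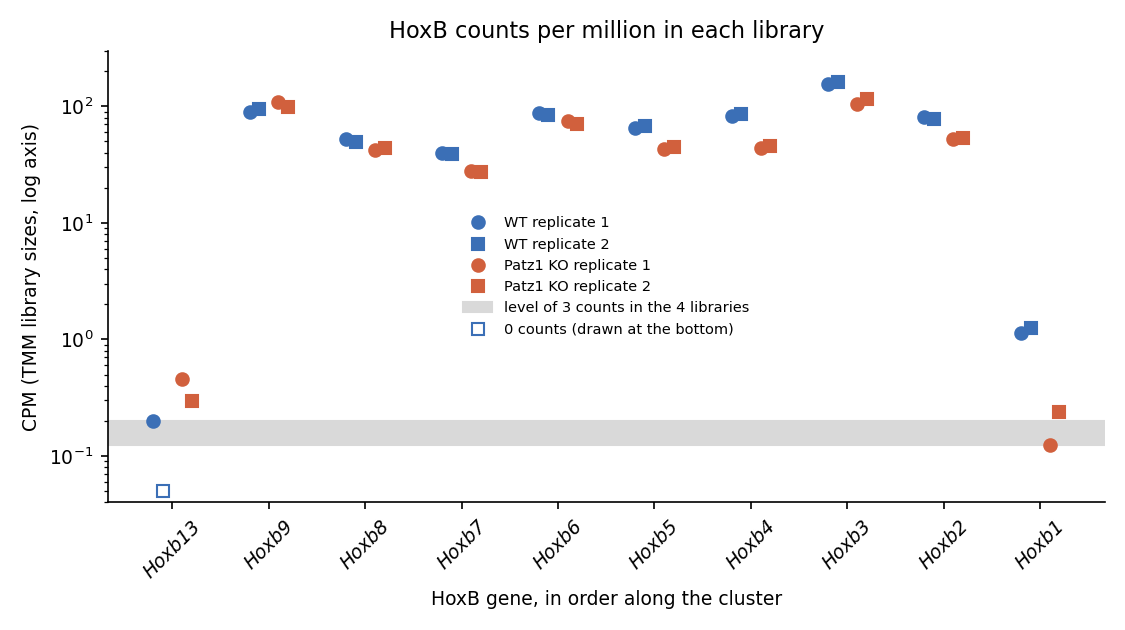
CPM (on TMM library sizes, log axis) of the 10 HoxB genes in each of the 4 libraries, in cluster order from *Hoxb13* to *Hoxb1*, with WT in blue and *Patz1* KO in orange, and the gray band giving the level of 3 counts. For *Hoxb1* to *Hoxb8* both orange points sit below both blue points, *Hoxb9* and *Hoxb13* are the reverse, and *Hoxb1* and *Hoxb13* lie far below the other 8 genes.

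*Hoxb1*, at the 3′ end, specifies rhombomere 4 of the hindbrain, the source of facial MNs. Its counts were 17 and 20 for WT and 3 and 4 for KO, or 1.14 and 1.26 CPM against 0.124 and 0.238 CPM. Both KO libraries were far below both WT libraries, and the first of them stood at the level of 3 counts taken as the floor of detection. The log2 fold change was -2.76 (SE 0.56, adjusted p = 0.000544), the largest fall in the cluster, and 1.45% of all genes tested had a lower value. *Hoxb1* passed the filter on low counts only through WT, the genotype in which it was higher. Its place among the genes tested, and so this rank, rests on WT. From pooled counts the WT level was 7.04-fold the KO level, with an exact 95% interval of 3.10 to 18.7 that covers counting error only. So few reads leave the size of the fall uncertain, although it was a fall in every fit that could be made, with a log2 fold change of -3.20 to -2.26.

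*Hoxb2* also acts in the hindbrain, downstream of *Hoxb1* and *Egr2*. Its 4 values were 81.2 and 77.7 CPM in WT and 52.5 and 53.8 CPM in KO. These groups were well apart, and the log2 fold change was -0.58 (SE 0.091, adjusted p = 5.08e-05). *Hoxb3*, a gene of the caudal hindbrain with several promoters, had the highest CPM of the cluster in every library except KO replicate 1, where *Hoxb9* was higher, with 154.3 and 160.7 CPM in WT and 104.5 and 114.9 CPM in KO. It fell by 0.52 on the log2 scale (SE 0.088, adjusted p = 9.38e-05), again with no overlap between genotypes. As described above, both genes share exon bases with *Hoxb3os*, which had no row of its own.

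*Hoxb4* is expressed from the last hindbrain segments backward and is best known for its action in blood stem cells. The WT libraries had 82.9 and 85.9 CPM and the KO libraries 44.1 and 46.1 CPM. The distance between genotypes was many times that between replicates, and *Hoxb4* had the smallest adjusted p of the cluster (log2 fold change -0.91, SE 0.093, adjusted p = 3.92e-07), a 1.87-fold fall. *Hoxb5*, a gene of the hindbrain to spinal cord transition that also acts in enteric nerve progenitors, had 64.9 and 67.7 CPM in WT and 43.3 and 44.7 CPM in KO. Its log2 fold change was -0.59 (SE 0.094, adjusted p = 5.37e-05), close to those of *Hoxb2* and *Hoxb3*.

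Further toward the 5′ end the falls were smaller. *Hoxb7*, a trunk gene, had 39.4 and 38.8 CPM in WT and 27.9 and 27.4 CPM in KO, with the smallest spread between replicates of the members above the floor, and fell by 0.50 on the log2 scale (SE 0.10, adjusted p = 0.000600). *Hoxb6*, its neighbor on the 3′ side, had 87.4 and 84.2 CPM in WT and 74.7 and 70.9 CPM in KO. Its groups did not overlap either, but the difference was slight, at -0.24 (SE 0.090, adjusted p = 0.0381), and the call was lost in 6 of 14 other fits, with adjusted p of 0.283 without WT replicate 1, 0.179 without WT replicate 2 and 0.0618 without KO replicate 2. The fall of *Hoxb6* is therefore the least certain of the 7.

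*Hoxb8*, which acts in the spinal cord and in trunk vertebrae and marks a lineage of microglia, had 52.0 and 49.2 CPM in WT and 42.6 and 44.0 CPM in KO. Both KO libraries were lower, yet the test was not passed (log2 fold change -0.23, SE 0.096, 95% interval -0.43 to -0.024, adjusted p = 0.0611, unadjusted p = 0.0305). With the replicate number as a block the adjusted p was 0.0366, and it was 0.0355 without KO replicate 2. This is the transcript with the near-complete miR-196a-5p match printed above.

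*Hoxb9*, a gene of thoracic identity that takes part in patterning the ribs, was the one tested member with higher KO than WT values. It had 90.2 and 95.6 CPM in WT and 109.4 and 99.6 CPM in KO. The gap between the nearest WT and KO libraries was smaller than the spread within either genotype, and the test was not passed (log2 fold change 0.17, SE 0.090, 95% interval -0.018 to 0.36, adjusted p = 0.126). Without KO replicate 2 the log2 fold change was 0.24 with an adjusted p of 0.0106, so 1 library decides this call.

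*Hoxb13*, the most 5′ gene, works in the tail end, hindgut and prostate, and it was near the floor here. Its counts were 3 and 0 for WT and 11 and 5 for KO, and both KO libraries were above both WT libraries. From pooled counts the KO to WT ratio was 4.0, with an exact 95% interval of 1.15 to 21.4 for counting error only. In the fit with no filter on low counts the log2 fold change was 1.93 (SE 1.10) with an adjusted p of 0.167, and it ran from 0.93 to 5.90 when single libraries were left out, none of which gave a call. The WT library with 0 counts allows up to 3 counts, or 0.189 CPM.

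**Figure D2:**
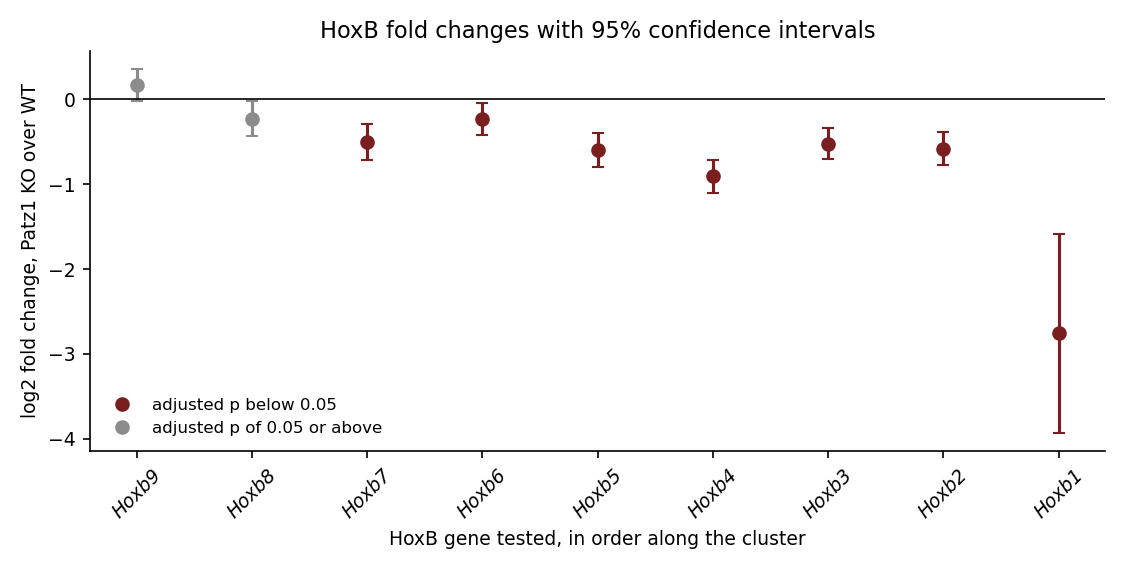
Log2 fold change (*Patz1* KO over WT) of the 9 tested HoxB genes in cluster order, with 95% confidence intervals from edgeR and dark red for an adjusted p below 0.05. The values go from 0.17 at *Hoxb9* to -2.76 at *Hoxb1*, with *Hoxb4* at -0.91 lower than both of its neighbors.

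Read along the cluster from 5′ to 3′, the log2 fold changes were 0.17 (*Hoxb9*), -0.23, -0.50, -0.24, -0.59, -0.91, -0.52, -0.58 and -2.76 (*Hoxb1*). The order was thus not a smooth slope, since *Hoxb6* changed less than *Hoxb7* and *Hoxb3* less than *Hoxb4*. Ratios of genes within a library, which do not depend on library size, were taken as well. The *Hoxb4* to *Hoxb9* count ratio was 0.920 and 0.899 in WT and 0.403 and 0.463 in KO. The *Hoxb1* to *Hoxb2* ratio was 0.0141 and 0.0162 in WT and 0.00236 and 0.00443 in KO. Of the 8 neighboring pairs from *Hoxb9* to *Hoxb1*, only *Hoxb2* over *Hoxb3* overlapped between genotypes (0.526 and 0.484 in WT, 0.502 and 0.469 in KO). An exact two-sided permutation test of 2 libraries against 2 cannot go below p = 0.333, and each of the other 7 pairs, as well as *Hoxb4* over *Hoxb9*, gave that value. Successive pairs share a gene and are not independent, and the share of separated pairs among other genes was not computed. Of all single genes tested, 37.2% had both KO libraries below both WT libraries and 37.0% had both above.

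Levels of different genes were compared per kb of merged exon length. In WT the order was *Hoxb6* (43.7 CPM per kb), *Hoxb3* (37.1), *Hoxb9* (36.1), *Hoxb4* (32.9), *Hoxb7* (25.3), *Hoxb5* (23.8), *Hoxb2* (22.8) and *Hoxb8* (19.2), with *Hoxb1* at 0.517 and *Hoxb13* at 0.0457. *Hoxb3* and *Hoxb9* were the only neighbors in that order whose 2 libraries overlapped. In KO *Hoxb9* came first (40.6 CPM per kb), before *Hoxb6* (37.1), *Hoxb3* (25.8), *Hoxb7* (17.9), *Hoxb4* (17.6), *Hoxb8* (16.4), *Hoxb5* (15.8), *Hoxb2* (15.2), *Hoxb13* (0.170) and *Hoxb1* (0.0780), and here only *Hoxb7* and *Hoxb4* overlapped. With the longest transcript as the length, *Hoxb3* came first in WT at 49.4 CPM per kb, so the top place depends on which *Hoxb3* exons are used. *Hoxb9* moved from the third place to the first, with 35.0 and 37.1 CPM per kb in WT and 42.5 and 38.7 in KO. *Hoxb6* and *Hoxb3*, ahead of it in WT, were lower in KO, and the change of *Hoxb9* itself was not called.

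As a share of the summed HoxB level per kb, *Hoxb9* went from 14.6% and 15.3% in WT to 22.7% and 20.8% in KO. *Hoxb4* made up 13.4% and 13.8% in WT and 9.16% and 9.66% in KO. *Hoxb6* held 18.5% and 17.7% in WT and 20.3% and 19.4% in KO. In each case the genotypes did not overlap. Since the shares of a library add up to a whole, the larger share of *Hoxb9* and the smaller share of *Hoxb4* are not separate observations. In total the cluster took 0.0659% and 0.0668% of all counts in WT and 0.0507% and 0.0484% in KO. Its summed level averaged 657 ± 5.35 CPM (SD, n = 2) for WT. For KO it averaged 501 ± 1.78 CPM (SD, n = 2), which is 1.31-fold lower.

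**Figure D3:**
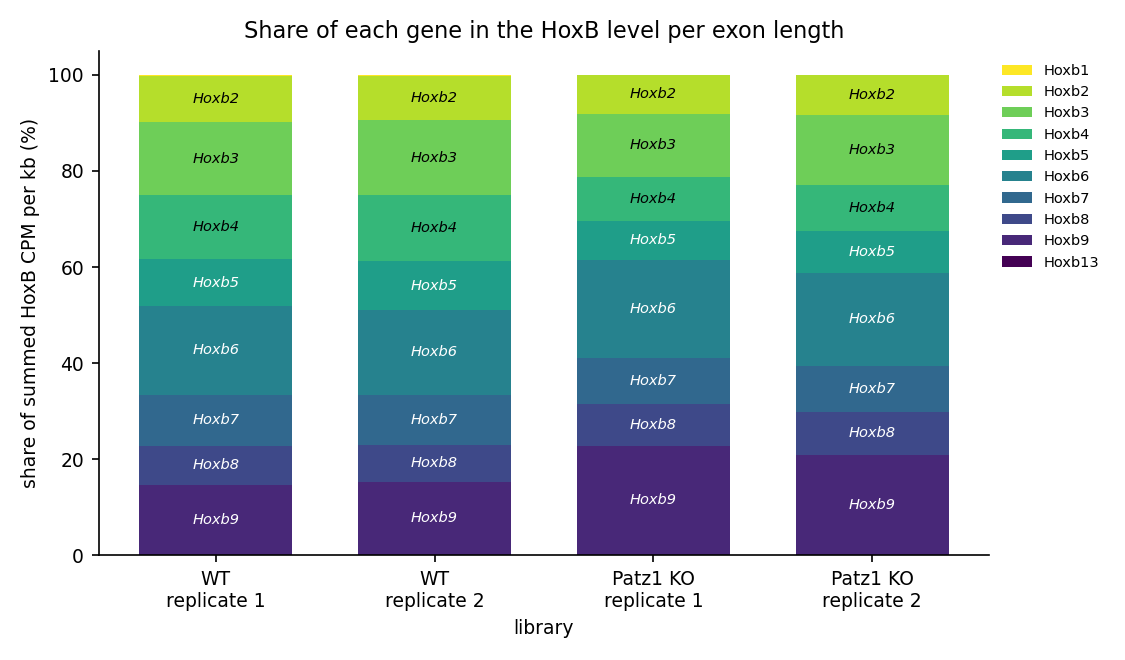
Share of each HoxB gene in the summed HoxB CPM per kb of exon (%, bars stacked from *Hoxb13* at the bottom to *Hoxb1* at the top) in each of the 4 libraries. The *Hoxb9* block is larger in both *Patz1* KO libraries (22.7% and 20.8%) than in both WT libraries (14.6% and 15.3%), while the *Hoxb4* block is smaller, and *Hoxb13* and *Hoxb1* are too thin to see.

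Inside the span the annotation holds 9 further genes, of which 3 had a row. *Mir196a-1* and *Mir10a* were given above. The third, *Gm53*, is a long non-coding RNA in the gap between *Hoxb13* and *Hoxb9* (chr11:96251105-96264868, plus strand). Its counts were 1 and 1 for WT and 13 and 9 for KO, higher in both KO libraries, as were those of *Hoxb13*. The pooled KO to WT ratio was 8.26 (exact 95% interval 2.03 to 72.5), and the fit with no filter gave a log2 fold change of 2.94 with an adjusted p of 0.0208.

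Within 500 kb of either end 13 genes were tested, of which 5 were called lower, 0 higher, and 8 neither. Over all genes tested 23.8% were called lower and 24.1% higher. Nearest to *Hoxb13* were *Atp5g1* at 118.6 kb (-0.35, adjusted p = 0.00829), *Ube2z* at 128.9 kb (0.20, adjusted p = 0.0678) and *Snf8* at 146.9 kb (-0.18, adjusted p = 0.188). On the *Hoxb1* side the nearest were *Skap1* at 96.3 kb (0.069, adjusted p = 0.866), *Snx11* at 399.3 kb (0.068, adjusted p = 0.610) and *Cbx1* at 420.9 kb (-0.44, adjusted p = 0.000606), so the tested gene nearest to *Hoxb1* gave no call. The smallest p values within the window belonged to *Igf2bp1* (-1.04, adjusted p = 8.99e-08) and *B4galnt2* (-1.80, adjusted p = 1.32e-05), both beyond *Hoxb13*, and then to *Cbx1*.

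The HoxA, HoxC and HoxD genes analysed here were 28 in number, and 16 were tested. Of these 2 fell and 5 rose, beside 23.8% and 24.1% of all genes tested. Their median log2 fold change was 0.063, beside -0.52 for HoxB. In paralog group 1, *Hoxd1* had 9 and 24 counts for WT and 9 and 17 for KO (-0.72, adjusted p = 0.282), so its libraries overlapped where those of *Hoxb1* did not. In group 8, *Hoxd8* rose (1.56, adjusted p = 2.17e-06) and *Hoxc8* was at -0.28 (adjusted p = 0.417). In group 9, *Hoxd9* rose by 2.47 (adjusted p = 5.52e-05) from 8 and 7 counts to 61 and 50, *Hoxc9* was at 0.95 (adjusted p = 0.116), and *Hoxa9* had 1 and 0 counts for WT and 20 and 10 for KO. *Hoxd9* and *Hoxc9* passed the filter on low counts only through KO, the genotype in which they were higher. The place of *Hoxd9* among the paralogs counted as risen, here and below, therefore rests on KO. *Hoxb9* had by far the highest counts of its group and the smallest log2 fold change among its tested members. In group 13, *Hoxa13* had no counts, *Hoxc13* had 1, 1, 3 and 0 (WT first) and *Hoxd13* 2, 4, 1 and 5, so the pattern of *Hoxb13* had no counterpart with enough reads to compare. Over groups 6 to 9 the other clusters had 4 called higher and 1 lower of 7 tested (median 1.26), and over groups 1 to 5 they had 1 higher and 1 lower of 9 (median 0.050). No difference between clusters was tested.

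**Figure D4:**
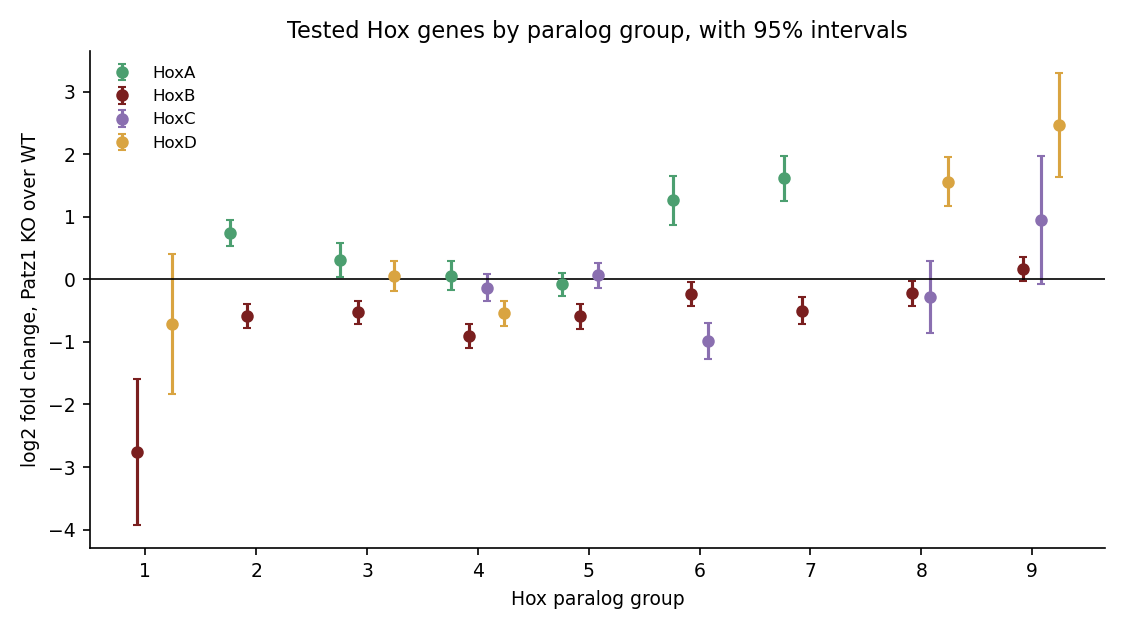
Log2 fold change (*Patz1* KO over WT) with 95% intervals for the tested Hox genes by paralog group, colored by cluster. HoxB genes lie below 0 in groups 1 to 8, and in group 9 *Hoxb9* (0.17) is the lowest of the 3 tested genes.

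Retinoic acid pathway genes, the signal that turns on the 3′ HoxB genes, were taken next. Of 24 genes 23 were tested, of which 11 fell and 4 rose, with a median of -0.21. Some of the 11 passed the filter on low counts only through WT, so they could hardly be called higher. Over all genes tested 23.8% fell and 24.1% rose. The smallest p values were those of *Rbp4*, a retinol carrier that endoderm also makes (-3.90, adjusted p = 2.50e-10), *Cyp26a1*, which degrades retinoic acid (-1.48, adjusted p = 2.65e-08), and *Aldh1a2*, which makes it (-1.21, adjusted p = 3.69e-08). *Cyp26a1*, itself a retinoic acid target, had 1685 and 1924 counts for WT and 1174 and 585 for KO, with a wide spread in KO, and *Aldh1a2* had 773 and 854 in WT and 571 and 368 in KO. Whether these changes had a part in the HoxB values was not tested.

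**Figure D5:**
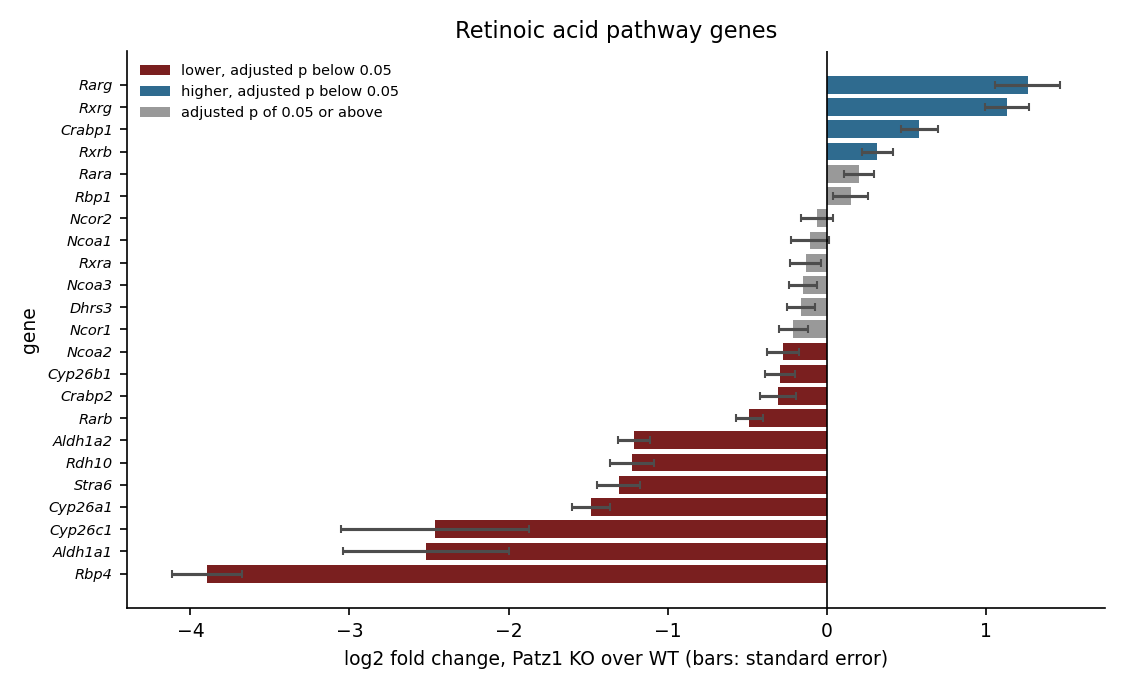
Log2 fold change (*Patz1* KO over WT) of the 23 tested retinoic acid pathway genes, sorted, with bars of 1 standard error and color giving the call. The 11 called lower include *Rbp4*, *Cyp26a1* and *Aldh1a2*, and the 4 called higher lie at the top.

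Of 16 factors that act on HoxB genes or bind DNA with HOX proteins 11 were tested, of which 1 fell and 2 rose, with a median of -0.018. For each list in this paragraph, the shares over all genes tested were 23.8% lower and 24.1% higher. No list was tested against these shares. *Meis3* (0.59, adjusted p = 6.14e-05) and *Pbx3* (0.54, adjusted p = 6.40e-05), partners of HOX proteins, rose. *Egr2*, a regulator of *Hoxb2*, had 4 and 4 counts for WT and 4 and 2 for KO. The caudal factors, which act on the 5′ and central HoxB genes, were almost absent, with *Cdx1* at 0 throughout, *Cdx2* at 4 and 8 counts for WT and 0 and 0 for KO, and *Cdx4* at 1, 0, 0 and 0. Chromatin regulators of Hox clusters (29 genes, 28 with a row and all of these tested) had 8 lower and 6 higher with a median of -0.068. Polycomb genes were called in both directions. *Cbx7* (1.81, adjusted p = 3.96e-10) and *Cbx8* (1.14, adjusted p = 2.95e-06) rose, whereas *Cbx2* (-0.55, adjusted p = 0.000180), *Bmi1* (-0.49, adjusted p = 0.000236) and *Eed* (-0.25, adjusted p = 0.0396) fell. Rhombomere 4 and cranial MN genes, the setting in which *Hoxb1* is best known, had 2 lower and 2 higher of 10 tested among 12, with a median of 0.0073. There *Rgs4* rose (1.45, adjusted p = 1.52e-05), as did *Irx3* (0.70, adjusted p = 0.000202), and *Epha4* fell (-0.57, adjusted p = 7.74e-05).

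Markers of several cell types differed between the same libraries as the HoxB genes did. Here and for the remaining lists below, the shares over all genes tested were 23.8% lower and 24.1% higher. MN markers (11 tested of 11) had 9 higher and 1 lower, led by *Prph* (1.33), *Foxp1* (-1.05) and *Chat* (0.99). Pan-neuronal markers (8 of 8) had 4 higher and 1 lower, with sums of 4036 to 4283 CPM in WT and 5874 to 6182 CPM in KO (*Dcx* 1.01, *Rbfox3* 0.89, *Stmn2* 0.42). Of 6 glial markers 3 were tested and these 3 were higher, with sums of 484 to 510 CPM and 798 to 878 CPM (*Slc1a3* 1.25, *Aldh1l1* 2.69, *Fabp7* 0.68). Most of each sum was *Fabp7*, at a mean of 446 CPM in WT and 712 CPM in KO. The other 3 glial markers had few counts. With WT first, *Gfap* had 1, 1, 0 and 0, *S100b* 7, 7, 5 and 10, and *Aqp4* 5, 6, 15 and 6. Neural progenitor markers (12 of 12) had 6 higher and 3 lower, with sums of 1707 to 1800 CPM and 1543 to 1587 CPM (*Nkx6-2* 2.81, *Hes5* -0.99, *Sox1* 1.03).

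Most of the remaining lists had more members called lower than higher, and neural crest markers split evenly. All 6 floor plate markers fell, with sums of 873 to 879 CPM in WT and 559 to 627 CPM in KO (*Shh* -2.99, *Foxa2* -2.35). Mesoderm and mesenchyme markers, of tissues that express Hox genes themselves, had 8 lower of 9 tested among 13, with sums of 195 to 220 CPM in WT and 32.3 to 37.5 CPM in KO (*Col3a1* -3.24, *Pdgfra* -3.96, *Foxc1* -3.34), and *Mesp1* and *Msgn1*, which define early mesoderm, were at 0 in all libraries. Endoderm markers had 8 lower of 10 tested among 12, with sums of 46.3 to 55.2 CPM and 8.82 to 8.87 CPM (*Dab2* -3.34, *Cubn* -2.92, *Gata4* -3.49). Neural crest markers split, 3 lower and 3 higher of 8, with sums of 85.2 to 86.2 CPM and 87.7 to 92.2 CPM (*Ets1* -1.30, *Snai2* -2.93, *Foxd3* 2.51). Endothelial and blood markers had 4 lower and 1 higher of 6 tested among 9, with sums of 12.5 to 13.3 CPM and 11.1 to 14.2 CPM (*Tal1* 2.56, *Cdh5* -2.44, *Kdr* -1.03). Pluripotent cell markers were low throughout, with sums of 9.80 to 12.7 CPM and 6.31 to 8.35 CPM, *Utf1* at 0, and 2 lower of 4 tested among 9 (*Klf4* -1.78, *Dppa5a* -1.71). Some members of these lists, *Gata4* and *Dppa5a* among them, passed the filter on low counts only through WT, and *Foxd3* only through KO. Such genes could hardly be called in the other direction. The part of these cell types in the HoxB values was not tested.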

How the data were processed

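The authors mapped the reads to mm10, and the deposited values are raw counts per gene symbol, without normalization. Per the labels, the libraries were stranded and depleted of ribosomal RNA, and the submitters' processing notes name TopHat2, Bowtie2, featureCounts and DESeq2; the annotation and strand setting are not given in the sources used here. Every row of the files names a gene. Counts were normalized with TMM and filtered with filterByExpr (minimum count 10), and *Patz1* KO was compared with WT with edgeR's quasi-likelihood test (edgeR 4.0.16, limma 3.58.1, R 4.3.3), adjusted by Benjamini-Hochberg over all 14269 genes tested. Standard errors are the absolute log2 fold change over the square root of F. The common biological coefficient of variation was 7.71%. Other fits used size factors of DESeq2, library size with no TMM, or TMM computed after leaving out the 20 genes with the most counts. Further ones had no filter, a filter of 10 counts in every library, a replicate block, a test against an absolute log2 fold change of 1, robust estimation, DESeq2's Wald test (DESeq2 1.42.0), thinning to the smallest library and leaving out each library; for *Hoxb13*, fits that combine these with no filter were added after the data were seen. Intervals of pooled counts are exact and cover counting error only, since the reads carry no molecular identifiers. The tests were checked on simulated counts. Python 3.11.15 (scipy 1.17.1, pandas 2.3.3, numpy 2.4.6, matplotlib 3.10.9) made the tables and plots.

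The members and the 14 gene lists were chosen with earlier results of these data known, and no test was run on a list. The genes named were the members, *Patz1*, the other counted genes inside the span, the 3 nearest tested genes on each side and the 3 smallest p values within 500 kb, *Egr2*, *Cdx1*, *Cdx2* and *Cdx4*, the 3 smallest p values of each list among genes called, and paralogs of groups 1, 8, 9 and 13. Named after their values were seen were *Cbx2*, *Bmi1*, *Eed*, *Isl1*, *Mnx1*, *Utf1*, *Mesp1*, *Msgn1*, *Gfap*, *S100b* and *Aqp4*. Some genes that this rule would name are not reported here.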

Additional observations from a re-analysis of the deposited data

How the results depend on the processing

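No HoxB gene changed direction in 137 fits of single genes under the alternatives. In 123 of these the call stayed as reported, 11 lost it and 3 gained it. Robust estimation, thinning and the 3 other scalings (DESeq2's size factors, library size with no TMM, and TMM that left out the 20 genes with the most counts) each called the same 7 genes lower. No filter and DESeq2's Wald test each called 6, without *Hoxb6*, and 10 counts in every library gave 6, because *Hoxb1* was not tested there. With a minimum absolute log2 fold change of 1, 1 HoxB gene (*Hoxb1*) was called lower, and over all genes 444 were lower and 274 higher in place of 3392 and 3444, so that 61.8% rather than 49.6% of calls were lower. Leaving out single libraries gave 6 to 7 HoxB genes lower and 0 to 1 higher (*Hoxb9*, without KO replicate 2), and 2175 to 3831 genes lower over all genes, the fewest without WT replicate 2. In these fits the lone library of a genotype was assumed to vary like the other genotype. The replicate block called 8 HoxB genes lower (adding *Hoxb8*) and 0 higher, with 3651 genes lower and 3710 higher over all genes. Same-numbered libraries did not deviate together (correlation 0.0485 over 2 pairs), so the numbers were not taken to pair them. Depth limits *Hoxb1* and *Hoxb13* most, with 7 pooled counts in KO and 3 in WT.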
